A study of Sus scrofa with 12 samples.

Results

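The interstitial matrix of the testis holds, beside its collagens and laminins, a set of small leucine-rich proteoglycans and glycoproteins, and 10 genes that encode them were followed here in pig testis RNA. They were DCN (decorin), LUM (lumican), BGN (biglycan), OGN (osteoglycin), FMOD (fibromodulin), FN1 (fibronectin), SPARC (osteonectin), FBN1 (fibrillin), ELN (elastin) and POSTN (periostin). The genes were chosen by symbol, with earlier results of these data known, and all 10 were found among the 21674 genes of the coding-gene table. Ha and Hb denote Hezuo (HZ) boars of 30 and 120 days, and La and Lb denote Landrace (LC) boars of the same ages. HZ is a small plateau breed known for early maturity, and LC served as the breed it was compared with. Testes were taken at castration from 3 boars for each group, so the 30-day and 120-day values came from different animals. Each of the 12 libraries was made from RNA cleared of ribosomal RNA, with the strand of origin kept. The estimated counts of protein-coding genes summed to between 17165519 (Hb3) and 23758931 (Ha1) in a library.

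Levels are given as FPKM, the fragments counted for a gene relative to its length and to all mapped fragments of the library, a scale on which genes can be compared with one another. Fold changes are on the log2 scale and came from edgeR's quasi-likelihood test on the estimated counts, with TMM scaling and Benjamini-Hochberg adjustment over all genes tested. The later age or the LC breed was always set over the other. A gene was called where the adjusted p was under 0.05 and the absolute log2 fold change over 1. All 10 genes passed the filter on low counts in every comparison. For 1 gene with 3 boars on either side, the smallest two-sided p that exact permutation allows is 0.1, so the p-values given are those of the model across all genes. The comparisons share groups, and the values of each are given side by side.

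The libraries carried the markers of testis. The summed FPKM of 8 Sertoli cell markers lay between 181 and 1770.5. INHA had the highest mean over the 12 libraries, but CLDN11 was the most abundant in Ha1, Ha2 and every 120-day library. The sum of 10 spermatid markers was 4.53 to 10.8 in the 30-day libraries and 3342 to 7667 in the 120-day libraries, with PRM1 the most abundant over the 12. The 3 measured mesothelial markers summed to at most 6.41. PAX8, the rete marker of the list for epididymis and rete, was not analysed, so the rete was not assessed. Of the 4 epididymal markers left (CST8, RNASE9, RNASE10 and CRISP1), RNASE9 was listed at 0 in all 12 libraries. Their sum was at most 0.56 in a 30-day library. In the 120-day libraries the sum was at most 18.3, and CST8, which testis also expresses, made up most of it.

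The 3 Hb libraries differed from one another in markers of interstitial cells. The FPKM sum of 7 Leydig cell markers was 2180.4, 189 and 128 in Hb1, Hb2 and Hb3, against 5487, 5009 and 4883 in Ha1, Ha2 and Ha3. COL3A1, a fibrillar collagen of fibroblasts, stood at 28.3, 6.05 and 4.23 FPKM in the same Hb libraries. Hb1 was thus above Hb2 and Hb3 in both, as it was in the sum of fibroblast markers. Other interstitial lists did not follow. Hb1 was lowest in the sum of peritubular myoid markers, at 78 against 128 in Hb2 and 96.7 in Hb3, and in that of endothelial markers. Hb2 was highest in pericyte and macrophage markers. Counts without Hb1 are given beside those of Ha vs Hb and Hb vs Lb. For the lists other than the 10 genes this alternative was chosen after seeing the data. Over all genes Hb2 lay farthest from the others, with a chi-square per gene of 95 between the counts of Hb1 and Hb2, 59.7 between Hb2 and Hb3 and 41.7 between Hb1 and Hb3, and counts of those lists without Hb2 were likewise chosen after seeing the data. In tissue RNA, fewer cells of a type and less RNA in each cell cannot be told apart.

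As background, small leucine-rich proteoglycans bind collagen fibrils and set how they assemble and space. Decorin and biglycan belong to class I of the family, lumican and fibromodulin belong to class II, and osteoglycin to class III. Fibronectin is a large adhesive glycoprotein that cells hold through integrins. SPARC and periostin are matricellular proteins, which act on cells and on collagen without being a main load-bearing part of the matrix. Fibrillin microfibrils are the scaffold on which elastin is laid down to make elastic fibres. In the testis this matrix lies in the interstitium, in vessel walls and in the wall of the seminiferous tubule, where peritubular myoid cells and fibroblasts make much of it.

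Together the 10 genes held most FPKM in the young testes and least in Hb. Their summed FPKM was 372, 345 and 407 in Ha1, Ha2 and Ha3 and 51.4, 42 and 30.8 in Hb1, Hb2 and Hb3. In LC boars it was 608, 476 and 569.7 in La1, La2 and La3 and 176, 219.7 and 209.8 in Lb1, Lb2 and Lb3. Every 120-day library lay below every 30-day library, and every Hb library lay below every Lb library.

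**Figure D1:**
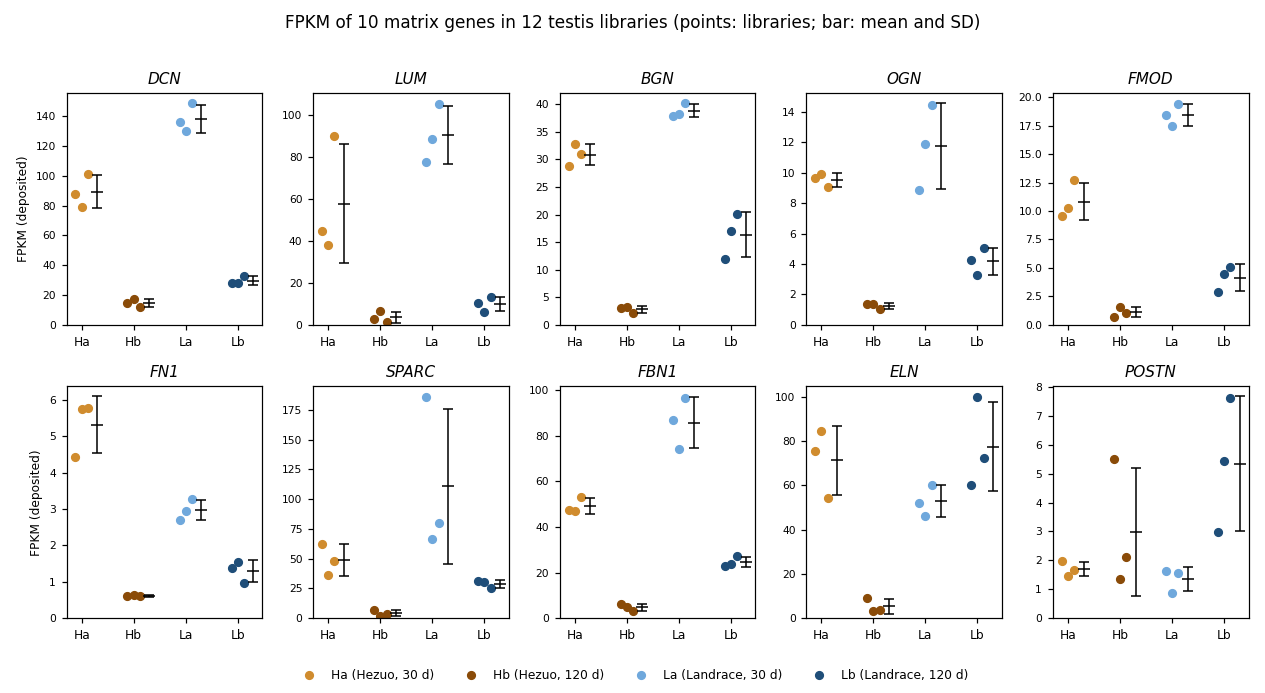
Deposited FPKM (linear axis, from 0) of each of the 10 matrix genes in the 12 libraries, with 3 points for each group and the mean and SD beside them. DCN was lower at 120 days in both breeds, while ELN was near 5.34 in Hb and 77.5 in Lb.

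DCN had the highest mean FPKM of the 10 genes in Ha, Hb and La, and ELN had it in Lb. In Ha the order was DCN 89.4 ± 11.2, ELN 71.3 ± 15.5, LUM 57.6 ± 28.3, FBN1 49.1 ± 3.62 and SPARC 48.9 ± 13.3 (mean ± SD, n = 3), and each of these overlapped with its neighbour in the order. BGN, FMOD, OGN, FN1 and POSTN followed, where FMOD and OGN overlapped and the others were separate. In La the order was DCN 138 ± 9.69, SPARC 111 ± 65.1, LUM 90.3 ± 13.9 and FBN1 85.8 ± 11.2, all overlapping with their neighbours, and then ELN, BGN, FMOD, OGN, FN1 and POSTN without overlap. In Hb, DCN (14.8 ± 2.79) stood clear of ELN (5.34 ± 3.32), and the genes from ELN through FBN1, SPARC, LUM and POSTN to BGN overlapped with their neighbours. OGN and FMOD came next and overlapped, and FN1 was lowest at 0.613 ± 0.0231. In Lb, ELN (77.5 ± 20.3) stood clear of DCN (29.7 ± 2.9), which overlapped with SPARC and SPARC with FBN1. BGN, LUM, POSTN, OGN and FMOD then overlapped with their neighbours, and FN1 was again lowest at 1.3 ± 0.30.

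Decorin, which binds collagen and several growth factors, fell with age in both breeds. DCN FPKM was 87.7, 79.1 and 101 in the Ha libraries and 14.9, 17.5 and 12 in the Hb libraries. In LC boars it was 136, 129.8 and 149 in La and 28.1, 28 and 33.1 in Lb. The groups did not overlap in any of the 4 comparisons, with La highest and Hb lowest. With age the log2 fold change was -2.11 ± 0.17 (SE, edgeR adjusted p = 4.19e-05) in HZ boars and -1.91 ± 0.10 (SE, edgeR adjusted p = 1.08e-06) in LC boars. Between breeds it was 0.66 ± 0.11 (SE, edgeR adjusted p = 0.00592) at 30 days and 0.89 ± 0.17 (SE, edgeR adjusted p = 0.0285) at 120 days, both under the fold threshold. The difference between the breeds in the change with age was 0.18 ± 0.19 (SE, edgeR adjusted p = 0.591) and was not called, with values between 0.10 (without Hb3) and 0.28 (without La3) when 1 library was left out, and 0.38 by limma on log2(FPKM + 0.1), where 0.22 was left relative to the shift of the median of all genes.

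Biglycan, the close relative of decorin encoded on chromosome X, kept a larger part of its level in LC boars. BGN FPKM was 28.9, 32.7 and 30.9 in Ha and 3.05, 3.2 and 2.13 in Hb. It was 38, 38.3 and 40.1 in La and 12, 17 and 20.1 in Lb. The 3 Hb libraries were far below all others, and no groups overlapped. BGN fell in HZ boars with a log2 fold change of -2.97 ± 0.19 (SE, edgeR adjusted p = 1.39e-05), while in LC boars it was -0.94 ± 0.16 (SE, edgeR adjusted p = 0.000927), short of the fold threshold. In LC boars it was called without Lb2 or Lb3, at log2 fold changes of -1.01 and -1.06. BGN was called higher in Lb than in Hb, with a log2 fold change of 2.43 ± 0.24 (SE, edgeR adjusted p = 0.00627). At 30 days the difference was 0.36 ± 0.08 (SE, edgeR adjusted p = 0.0172). The change with age differed between the breeds by 2.01 ± 0.24 (SE, edgeR adjusted p = 0.00229).

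The ratio of BGN to DCN within a library does not depend on how the library was scaled. It was 0.33, 0.414 and 0.305 in Ha and 0.204, 0.182 and 0.178 in Hb, and 0.28, 0.295 and 0.27 in La and 0.427, 0.607 and 0.607 in Lb. It was thus lower at 120 than at 30 days in HZ boars and higher in LC boars, with no overlap in either breed. Ratios to DCN were computed for all members after their values were seen and were not tested.

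Lumican and fibromodulin, which bind a shared region of collagen, both fell with age in both breeds. LUM FPKM was 44.6, 38 and 90.1 in Ha and 2.89, 6.4 and 1.42 in Hb. It was 77.5, 88.4 and 105 in La and 10.5, 6.15 and 13.1 in Lb. Ha3 was about as high as the La libraries while Ha1 and Ha2 were lower, and Hb2 overlapped with Lb. The fall had a log2 fold change of -3.55 ± 0.56 (SE, edgeR adjusted p = 0.00105) in HZ boars and -2.88 ± 0.25 (SE, edgeR adjusted p = 1.63e-05) in LC boars. Neither breed comparison was called, at 0.68 ± 0.30 (SE, edgeR adjusted p = 0.142) at 30 days and 1.36 ± 0.50 (SE, edgeR adjusted p = 0.139) at 120 days. The interaction was 0.64 ± 0.62 (SE, edgeR adjusted p = 0.57), with values between 0.19 (without Ha3) and 1.27 (without Hb2) when 1 library was left out. LUM was called higher in La without Ha3, with a log2 fold change of 1.15 (edgeR adjusted p = 0.00293), and higher in Lb without Hb2, at 2.03 (edgeR adjusted p = 0.0366). DESeq2 also called it higher in Lb, at 1.35 (DESeq2 adjusted p = 0.0285).

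FMOD FPKM was 9.53, 10.3 and 12.7 in Ha and 0.72, 1.57 and 1.01 in Hb. The La libraries held 18.4, 17.4 and 19.4 and the Lb libraries 2.85, 4.47 and 5.11. All 4 groups were separate, with La highest and Hb lowest. FMOD fell with age, at log2 fold changes of -2.83 ± 0.27 (SE, edgeR adjusted p = 8.5e-05) in HZ boars and -1.85 ± 0.19 (SE, edgeR adjusted p = 5.13e-05) in LC boars. It was called higher in Lb than in Hb at 1.80 ± 0.32 (SE, edgeR adjusted p = 0.0251), whereas the 30-day difference of 0.80 ± 0.12 (SE, edgeR adjusted p = 0.00467) was under the fold threshold. The 120-day call was lost without Hb3, Lb2 or Lb3, with edgeR adjusted p-values of 0.0855, 0.0951 and 0.0909. The interaction was 0.96 ± 0.33 (SE, edgeR adjusted p = 0.0997) and was called without Hb2, at 1.24 (edgeR adjusted p = 0.0263).

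Osteoglycin, also called mimecan, was a less abundant member that fell with age in both breeds. OGN FPKM was 9.67, 9.94 and 9.04 in Ha and 1.35, 1.38 and 1.02 in Hb. It was 8.84, 11.9 and 14.5 in La and 4.26, 3.26 and 5.03 in Lb. The 30-day groups overlapped on this scale, and the 120-day groups did not. With age its log2 fold change was -2.35 ± 0.23 (SE, edgeR adjusted p = 0.000109) in HZ boars and -1.38 ± 0.23 (SE, edgeR adjusted p = 0.000723) in LC boars. OGN was called higher in Lb than in Hb at 1.31 ± 0.29 (SE, edgeR adjusted p = 0.0446), a call that was lost without Hb2, Hb3, Lb1, Lb2 or Lb3 (edgeR adjusted p-values between 0.0528 and 0.145). The 30-day difference of 0.31 ± 0.16 (SE, edgeR adjusted p = 0.216) and the interaction of 0.95 ± 0.33 (SE, edgeR adjusted p = 0.10) were not called, and the former was 0.11 without La3. OGN lies inside the span of CENPP, a centromere protein gene whose mean FPKM was 3.24 in Ha and 25.2 in Hb, and how reads in the shared span were assigned is not given in the sources used here.

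Fibronectin was the least abundant member in the 120-day groups. FN1 FPKM was 4.42, 5.76 and 5.78 in Ha and 0.60, 0.64 and 0.60 in Hb. It was 2.71, 2.95 and 3.27 in La and 1.39, 1.55 and 0.97 in Lb. Ha was highest and the 3 Hb libraries were lowest and close together, with no overlap in any comparison. FN1 fell in HZ boars at a log2 fold change of -2.62 ± 0.17 (SE, edgeR adjusted p = 1.7e-05). In LC boars it was -0.87 ± 0.21 (SE, edgeR adjusted p = 0.00565), under the fold threshold, and it was called at -1.04 without Lb2. At 30 days the LC boars were on the lower side at -0.81 ± 0.13 (SE, edgeR adjusted p = 0.0060), and at 120 days on the higher side at 0.98 ± 0.25 (SE, edgeR adjusted p = 0.0604), and neither was called. The difference between the breeds in the change with age was called at 1.75 ± 0.28 (SE, edgeR adjusted p = 0.0074).

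SPARC, a collagen-binding matricellular protein, fell with age in both breeds but varied widely between boars. SPARC FPKM was 62.6, 36 and 48 in Ha and 7.14, 1.77 and 3.61 in Hb. It was 186, 66.9 and 80.2 in La and 31.3, 30.2 and 25 in Lb. La1 stood far above La2 and La3, and Hb1 above Hb2 and Hb3, while the 4 groups did not overlap in the comparisons made. The fall had a log2 fold change of -3.01 ± 0.53 (SE, edgeR adjusted p = 0.00179) in HZ boars and -1.63 ± 0.36 (SE, edgeR adjusted p = 0.00388) in LC boars. Without La1 the latter was -1.03 (edgeR adjusted p = 0.00134). At 120 days SPARC was called higher in Lb at 2.65 ± 0.48 (SE, edgeR adjusted p = 0.0249), and this call was lost without Hb3, Lb1, Lb2 or Lb3 (edgeR adjusted p-values between 0.0689 and 0.0898). At 30 days the difference was 1.21 ± 0.39 (SE, edgeR adjusted p = 0.0593), 0.63 without La1, and called at 1.49 (edgeR adjusted p = 0.0469) without La2. The interaction was 1.38 ± 0.69 (SE, edgeR adjusted p = 0.247) and was not called, also at 2.13 (edgeR adjusted p = 0.058) without Hb1.

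Periostin was the one member called higher with age. POSTN FPKM was 1.96, 1.47 and 1.66 in Ha and 5.5, 1.35 and 2.12 in Hb. It was 1.64, 0.87 and 1.56 in La and 2.97, 5.44 and 7.63 in Lb. The Lb libraries were all above La, whereas in HZ boars Hb2 lay below and Hb1 and Hb3 above all 3 Ha libraries in FPKM. POSTN rose in LC boars with a log2 fold change of 2.29 ± 0.37 (SE, edgeR adjusted p = 0.000598). In HZ boars the value of 1.37 ± 0.54 (SE, edgeR adjusted p = 0.0521) was not called. It was 0.51 (edgeR adjusted p = 0.181) without Hb1 and 1.70 (edgeR adjusted p = 0.0112) without Hb2, the latter past the threshold, and DESeq2 called it at 1.43 (DESeq2 adjusted p = 0.0121). It was also called by edgeR with all 12 libraries in one fit and with a filter of at least 10 counts in every library of a group, at edgeR adjusted p-values of 0.0269 and 0.0492. By limma on FPKM the value in HZ boars was smaller and not called, at 0.43 with log2(FPKM + 1) and 0.55 with log2(FPKM + 0.1), or 0.69 and 1.01 relative to the shift of the median of all genes. The rise in LC boars was 1.38 with log2(FPKM + 1), or 1.55 relative to the shift, on a scale that understates the change of low genes. Between breeds the log2 fold change was -0.30 ± 0.27 (SE, edgeR adjusted p = 0.46) at 30 days and 0.68 ± 0.54 (SE, edgeR adjusted p = 0.461) at 120 days, and neither was called. The 30-day value was -0.05 without La2 and -0.45 without La1. The 120-day value was 1.51 (edgeR adjusted p = 0.0936) without Hb1, 0.31 without Hb2 and 0.37 without Lb3. The interaction of 0.91 ± 0.70 (SE, edgeR adjusted p = 0.463) was not called either, and was 1.81 (edgeR adjusted p = 0.061) without Hb1 and 0.53 without Hb2.

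Fibrillin and elastin, the parts of elastic fibres, differed from each other most clearly in the LC boars. FBN1 FPKM was 47.4, 46.8 and 53.3 in Ha and 6.1, 5.08 and 3.1 in Hb. It was 86.9, 74 and 96.4 in La and 22.9, 23.7 and 27.3 in Lb. All 4 groups were separate. FBN1 fell with age in both breeds, with log2 fold changes of -2.87 ± 0.27 (SE, edgeR adjusted p = 8.46e-05) in HZ boars and -1.49 ± 0.12 (SE, edgeR adjusted p = 1.22e-05) in LC boars, and the difference between these changes was called at 1.36 ± 0.29 (SE, edgeR adjusted p = 0.0214). FBN1 was called higher in Lb than in Hb at 2.25 ± 0.25 (SE, edgeR adjusted p = 0.0084), while 0.83 ± 0.11 (SE, edgeR adjusted p = 0.00299) at 30 days was under the fold threshold.

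ELN FPKM was 75.3, 84.5 and 54.2 in Ha and 9.14, 3.04 and 3.83 in Hb. It was 52.2, 46 and 60.4 in La and 60.2, 99.9 and 72.6 in Lb. The Hb libraries stood apart from the other 9, which ranged from 46 to 99.9, and the 30-day groups overlapped. ELN fell in HZ boars with a log2 fold change of -3.20 ± 0.44 (SE, edgeR adjusted p = 0.000525). In LC boars the value was 0.93 ± 0.25 (SE, edgeR adjusted p = 0.00894), under the fold threshold. La and Lb did not overlap in CPM (TMM-scaled counts relative to the total of a library), whereas in FPKM Lb1 lay within the range of La. In LC boars ELN was called higher at 120 days without La3, Lb1 or Lb3, with edgeR adjusted p-values of 0.0206, 0.00464 and 0.0108 and log2 fold changes of at most 1.12. Without Lb2, the highest of the Lb libraries, the value was 0.57 (edgeR adjusted p = 0.0104), and by limma it was 0.52 with log2(FPKM + 1) and 0.53 with log2(FPKM + 0.1). The difference between Hb and Lb, 3.84 ± 0.47 (SE, edgeR adjusted p = 0.0103), was the largest of the 10 genes, and so was the interaction of 4.13 ± 0.55 (SE, edgeR adjusted p = 0.00344). Without Hb1 these were 4.44 (edgeR adjusted p = 0.00299) and 4.80 (edgeR adjusted p = 0.000145). At 30 days the difference of -0.35 ± 0.16 (SE, edgeR adjusted p = 0.154) was not called, and it was -0.22 without La2.

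The make-up of the summed FPKM followed these differences. ELN took 8.59, 9.65 and 10.6% of the sum in La1, La2 and La3 and 34.1, 45.5 and 34.6% in Lb1, Lb2 and Lb3. In HZ boars its share was 20.2, 24.5 and 13.3% in Ha and 17.8, 7.24 and 12.4% in Hb, which overlapped. DCN took 29, 41.8 and 38.8% in Hb, more than in any library of the other groups, and 15.9, 12.8 and 15.8% in Lb, less than in any library of the other groups. The share of POSTN was 10.7, 3.22 and 6.88% in Hb and 1.68, 2.48 and 3.64% in Lb, against at most 0.527% in a 30-day library. These shares are a description and were not tested.

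**Figure D2:**
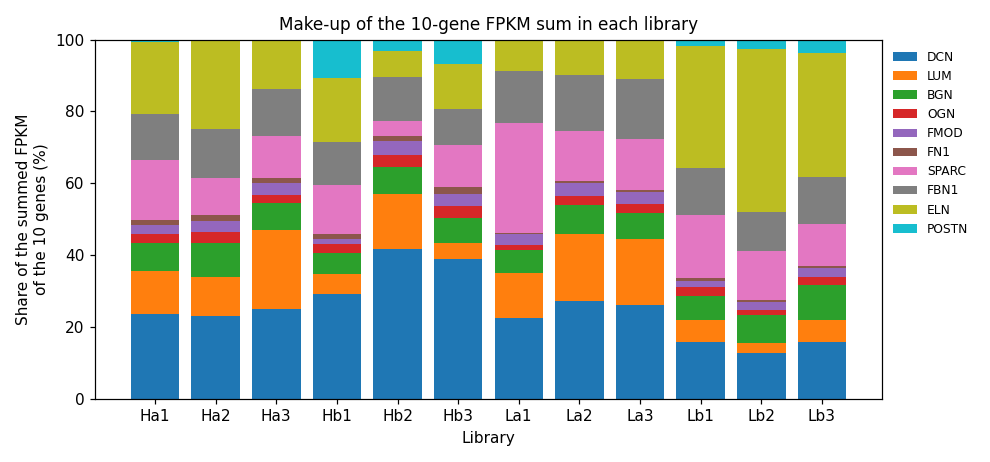
Share (percent) of the FPKM sum of the 10 matrix genes taken by each gene in each of the 12 libraries, as bars stacked to 100%. The ELN share was between 34.1% and 45.5% in Lb and at most 24.5% elsewhere.

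Counted over the members, the change with age in HZ boars was almost uniform. As the members were chosen with earlier results of these data known, their counts beside the shares of all genes are a description. In Ha vs Hb, 9 of the 10 genes were called lower, against 23.2% of all 16548 genes tested, and none was called higher, against 28.2%. The exception was POSTN. The median log2 fold change of the 10 was -2.85, against -0.02 over all genes tested. The groups did not overlap in CPM for 9 of the 10, against 76.2% of all genes. At an adjusted p under 0.05 with any fold 9 passed, against 68.9% of all genes, and all 10 had an unadjusted p under 0.05, against 71.9%. Without Hb1 the count called was 9. The log2 fold change of LUM was below that of all but 1.73% of the genes tested, and that of DCN below all but 8.48%.

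The change with age in LC boars passed the test for all 10 members and the fold threshold for 7. In La vs Lb, 6 of the 10 were called lower (DCN, LUM, OGN, FMOD, SPARC and FBN1), against 20.1% of all 16637 genes tested. POSTN was the only gene called higher, against 27.5% of all genes. The median log2 fold change was -1.43, against 0.01 over all genes. BGN, FN1 and ELN had adjusted p-values of 0.000927, 0.00565 and 0.00894 in edgeR with fold changes under the threshold. With library totals or upper-quartile scaling, which moved the median of all genes by -0.17 and -0.26, BGN and FN1 were called lower, and relative to that shift their log2 fold changes were between -0.94 and -0.87. By limma on FPKM, BGN was called at -1.22 with log2(FPKM + 1) and -1.27 with log2(FPKM + 0.1), or -1.05 and -0.99 relative to the shift. FN1 was called at -1.15 with log2(FPKM + 0.1), or -0.87 relative to the shift. All 10 genes had groups that did not overlap in CPM, against 75.9% of all genes. All 10 also had an adjusted p under 0.05 with any fold, against 70%, and an unadjusted p under 0.05, against 72.5%.

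At 30 days DCN, LUM, BGN, OGN, FMOD, SPARC and FBN1 were on the higher side in LC boars, and FN1, ELN and POSTN on the lower side, without a call. In Ha vs La, 0 of the 10 were called by edgeR and 0 by DESeq2, against 7.62% of all 15648 genes tested by edgeR (3.6% higher and 4.01% lower in La). At an unadjusted p under 0.05, 6 of the 10 passed, against 36.4% of all genes. With the fold threshold left off, 5 passed (DCN, BGN, FMOD and FBN1 on the side of La, and FN1 on the side of Ha), against 21.3%. The median log2 fold change was 0.51, against 0.00 over all genes. The groups did not overlap in CPM for 7 of the 10, against 41.8% of all genes.

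At 120 days the LC boars were on the higher side for all 10 members. In Hb vs Lb, 6 were called higher in Lb (BGN, OGN, FMOD, SPARC, FBN1 and ELN), against 2.65% of all 16311 genes tested, and none was called lower, against 1.2% (3.85% in either direction). The median log2 fold change was 1.58, against 0.00 over all genes, and 8 of the 10 did not overlap in CPM, against 32.3% of all genes. At an unadjusted p under 0.05, 9 of the 10 passed, against 25.5% of all genes, POSTN being the one that did not. At an adjusted p under 0.05 with any fold 7 passed, against 5.47%. Without Hb1 the count called was 6. It was 3 without Hb3, without Lb2 or without Lb3, where 119, 97 and 139 of all genes were called in place of 628, and BGN, FBN1 and ELN were the members still called. Without Lb1 it was 4 with 182 of all genes called, and without Hb2 it was 6 with 1029. The log2 fold change of ELN exceeded that of 99.6% of the genes tested, and those of SPARC, BGN and FBN1 exceeded 99.1%, 98.8% and 98.5%.

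**Figure D3:**
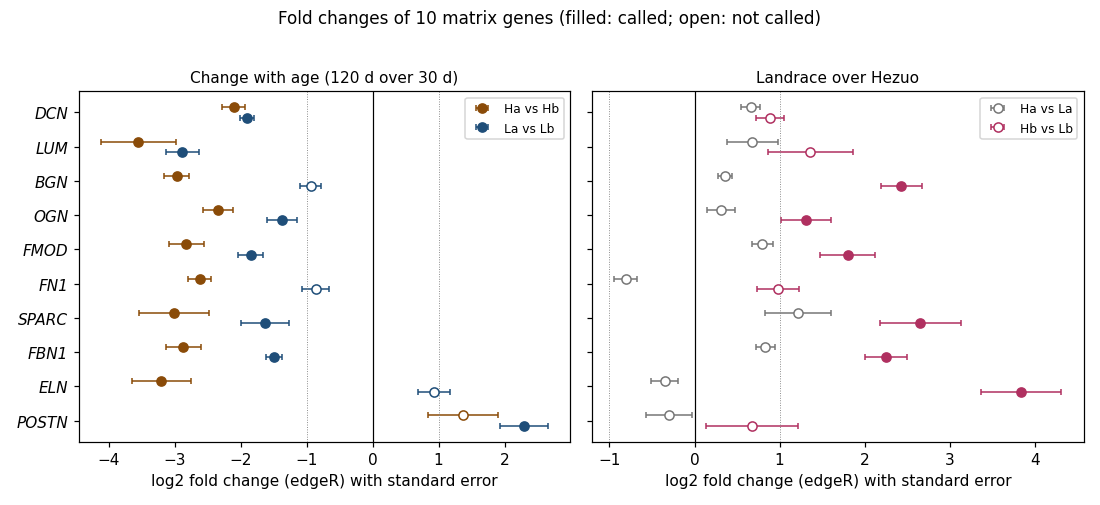
Log2 fold changes of the 10 matrix genes from edgeR with their standard errors (n = 3 for each group), for the change with age in each breed (left) and for Landrace over Hezuo at each age (right). Filled points were called and open points were not, and dotted lines mark the fold threshold of 1. In Hb vs Lb all 10 points lie above 0, up to 3.84 for ELN.

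Whether the change with age differed between the breeds was tested as an interaction over the 12 libraries. It was called for 4 of the 10 (BGN, FN1, FBN1 and ELN), all with a smaller fall or a higher value in LC boars, against 3.51% of all 17332 genes tested, and none was called with the opposite sign, against 1.62% (5.14% in either direction). An unadjusted p under 0.05 was reached by 6 of the 10, against 24.1% of all genes. Without Hb1 the count was 4, and with any other single library left out it was 4 or 5, while the genes called over all ranged from 437 (without Ha1) to 1242 (without Hb2), against 890 with the 12 libraries. For DCN, LUM, OGN, FMOD and SPARC, whose falls were called in both breeds, the interactions of 0.18, 0.64, 0.95, 0.96 and 1.38 were not called. The median interaction of the 10 was 1.16, against 0.02 over all genes.

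The counts of other gene lists are to be read against the shares of all genes called, which hold for each list. With age, 23.2% of all genes were called lower and 28.2% higher in HZ boars, and 20.1% lower and 27.5% higher in LC boars. Between breeds, 3.6% were higher and 4.01% lower in La at 30 days, and 2.65% higher and 1.2% lower in Lb at 120 days. Without Hb1 the shares were 22% lower and 27% higher in Ha vs Hb, and 2.85% higher and 0.882% lower in Hb vs Lb. An unadjusted edgeR p under 0.05 was reached by 36.4% of all genes in Ha vs La, 25.5% in Hb vs Lb and 24.1% for the interaction.

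Other small leucine-rich proteoglycans were counted beside the members. Of 12 in the table, 5 of 10 tested fell and 1 rose with age in HZ boars (5 and 1 without Hb1), and 4 of 10 fell and 1 rose in LC boars. TSKU (tsukushi) fell from 19.5 ± 3.48 to 0.963 ± 0.20 FPKM in HZ boars, a log2 fold change of -3.81 ± 0.24 (SE, edgeR adjusted p = 1.55e-05), and from 19.5 ± 0.956 to 4.23 ± 2.11 in LC boars at -1.89 ± 0.31 (SE, edgeR adjusted p = 0.000767) (mean ± SD, n = 3). OPTC (opticin) rose from 0.0767 ± 0.108 to 5.48 ± 2.01 FPKM in HZ boars, and from 0.080 ± 0.0985 to 6.36 ± 1.51 in LC boars, with log2 fold changes of 6.60 ± 0.88 (SE, edgeR adjusted p = 0.000441) and 6.64 ± 0.64 (SE, edgeR adjusted p = 3.16e-05). TSKU and ASPN (asporin) were called higher in Lb than in Hb, at 1.99 ± 0.39 (SE, edgeR adjusted p = 0.0315) and 2.97 ± 0.55 (SE, edgeR adjusted p = 0.028), where ASPN was at only 0.0267 ± 0.00577 and 0.223 ± 0.0153 FPKM. These were the 2 genes of the list called there, and 3 were called without Hb1.

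Beside FBN1 and ELN, most genes for the assembly of elastic fibres fell in HZ boars. Of 18 genes, 16 fell and none rose in Ha vs Hb (15 fell without Hb1, and 14 fell and 1 rose without Hb2). The median log2 fold change there was -1.93, against -0.02 over all genes. In La vs Lb 10 fell and 1 rose. LTBP3, which holds latent TGF-beta in the matrix, fell in both breeds, at -3.00 ± 0.25 (SE, edgeR adjusted p = 4.53e-05) and -3.46 ± 0.21 (SE, edgeR adjusted p = 2.06e-06), and MFAP5, a microfibril protein, was the one that rose in La vs Lb, at 2.96 ± 0.32 (SE, edgeR adjusted p = 6.41e-05). At 120 days 8 of 18 were called higher in Lb (6 without Hb1) and none lower, against 2.65% and 1.2% of all genes. MFAP4, which binds elastin and fibrillin, was at 5.12, 5.53 and 3.48 FPKM in Hb and 25.3, 22.1 and 41.5 in Lb. Its log2 fold change was 2.52 ± 0.27 (SE, edgeR adjusted p = 0.00789), and that of FBLN2 (fibulin) was 2.03 ± 0.29 (SE, edgeR adjusted p = 0.015).

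Enzymes that crosslink collagen and elastin fell in HZ boars for 8 of 9 genes (7 without Hb1), and 3 of 9 were called lower in La vs Lb. LOX, the lysyl oxidase, stood at 15.8, 14.3 and 15.1 FPKM in Ha and 1.69, 1.05 and 1.54 in Hb. In LC boars it was at 8.81, 9.79 and 12.6 in La and 4.42, 4.19 and 5.86 in Lb. LOX fell in HZ boars at -2.90 ± 0.26 (SE, edgeR adjusted p = 6.72e-05), and in LC boars the value of -0.80 ± 0.19 (SE, edgeR adjusted p = 0.00565) was under the fold threshold. LOX and LOXL2 were the 2 genes of this list called higher in Lb than in Hb, at 1.62 ± 0.29 (SE, edgeR adjusted p = 0.0244) and 1.88 ± 0.25 (SE, edgeR adjusted p = 0.0119), and 2 were called there without Hb1. The interaction was called for 4 of the 9, and for 4 without Hb1, against 3.51% and 4.3% of all genes with that sign.

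Matricellular genes did not all follow SPARC. Of 23 tested, 13 fell and 2 rose in Ha vs Hb (13 and 1 without Hb1), against 23.2% and 28.2% of all genes. In La vs Lb 7 fell and 3 rose, against 20.1% and 27.5%, so that the part that fell was not far from that of all genes. In Hb vs Lb 3 were called higher in Lb, and 5 without Hb1. TGFBI (keratoepithelin) and THBS1 (thrombospondin) fell in HZ boars at -3.81 ± 0.21 (SE, edgeR adjusted p = 8.32e-06) and -3.66 ± 0.25 (SE, edgeR adjusted p = 1.94e-05), and TGFBI was called higher in Lb than in Hb, at 2.37 ± 0.25 (SE, edgeR adjusted p = 0.00646). COMP, a thrombospondin best known from cartilage, was at 0.20, 0.20 and 0.16 FPKM in Ha and 108, 103 and 155 in Hb. It was at 0.44, 0.15 and 0.12 in La and 77.8, 63.9 and 77.6 in Lb. COMP rose in both breeds, at 9.84 ± 0.30 (SE, edgeR adjusted p = 1.67e-06) and 8.53 ± 0.36 (SE, edgeR adjusted p = 2.61e-07), while its relative THBS4 fell to 0.90 ± 0.65 FPKM in Hb and 0.433 ± 0.106 in Lb from 29.4 ± 11.2 and 54.6 ± 11.6 (mean ± SD, n = 3). At 30 days CTGF, a CCN protein induced by TGF-beta, was called lower and SPP1 (osteopontin) higher in La, at -1.96 ± 0.10 (SE, edgeR adjusted p = 0.000126) and 2.72 ± 0.40 (SE, edgeR adjusted p = 0.00431).

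Enzymes of glycosaminoglycan synthesis and sulfation, among them those for chondroitin and keratan sulfate, fell with age in both breeds in most cases. Of 23 genes, 15 fell and 2 rose in Ha vs Hb (16 and 2 without Hb1), and 16 fell and 2 rose in La vs Lb. CHSY1, a chondroitin synthase, fell from 22.9 ± 1.67 to 5.92 ± 1.35 FPKM and from 27.9 ± 0.747 to 6.98 ± 0.854 (mean ± SD, n = 3), at -1.47 ± 0.15 (SE, edgeR adjusted p = 0.000142) and -1.69 ± 0.11 (SE, edgeR adjusted p = 2.78e-06). B4GALT7, which adds the first galactose of the linker, rose at 1.27 ± 0.16 (SE, edgeR adjusted p = 0.000297) and 1.60 ± 0.25 (SE, edgeR adjusted p = 0.000591). In Ha vs La, 5 of 22 tested were called higher in La and none lower, against 3.6% and 4.01% of all genes, and DESeq2 called 5 as well. The one with the smallest adjusted p was CHST3, a chondroitin sulfotransferase, at 1.03 ± 0.11 (SE, edgeR adjusted p = 0.00153). In Hb vs Lb, 0 of 23 were called by edgeR and 1 by DESeq2, and 3 had an unadjusted p under 0.05 in edgeR. The interaction was called for 0 of 23 by edgeR and 1 by DESeq2, with 5 at an unadjusted edgeR p under 0.05. Without Hb1 both edgeR counts were 0, and without Hb2 they were 1 and 2.

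Receptors of fibronectin and syndecans fell for 9 of 12 genes tested in Ha vs Hb (8 without Hb1) and for 9 of 12 in La vs Lb, and none was called higher in either. ITGA5, the alpha subunit of the main fibronectin receptor, was at 2.87, 1.88 and 1.27 FPKM in Hb and 5.61, 11.3 and 5.29 in Lb. Its log2 fold change was -3.04 ± 0.32 (SE, edgeR adjusted p = 0.000135) with age in HZ boars and 1.77 ± 0.41 (SE, edgeR adjusted p = 0.0493) between breeds at 120 days, where 2 genes of the list were called higher in Lb and 1 without Hb1. Of the large proteoglycans and hyaluronan genes, 7 of 11 tested fell and 1 rose in Ha vs Hb (6 and 1 without Hb1), and 6 of 12 fell and 2 rose in La vs Lb. HSPG2 (perlecan) of basement membranes was called higher in Lb than in Hb at 1.79 ± 0.37 (SE, edgeR adjusted p = 0.0356), and NCAN (neurocan) lower at -2.56 ± 0.29 (SE, edgeR adjusted p = 0.00878), with 2 higher and 1 lower without Hb1. Of 5 genes for propeptide processing, 3 fell and 1 rose in HZ boars, as without Hb1, and 4 fell in LC boars.

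The other matrix lists were also counted between breeds at 30 days. In Ha vs La, 2 of 18 genes of elastic fibre assembly were called higher in La and 1 lower, and 4 of 23 matricellular genes higher and 3 lower, against 3.6% and 4.01% of all genes. Of the other small leucine-rich proteoglycans and of the large proteoglycans and hyaluronan genes, 1 of 10 and 1 of 10 were called higher. Neither edgeR nor DESeq2 called a crosslinking enzyme, a fibronectin receptor or syndecan or a gene of propeptide processing, where 7 of 9, 5 of 12 and 3 of 5 had an unadjusted edgeR p under 0.05, against 36.4% of all genes. The interaction was called, with the higher value in LC boars, for 7 of 18 genes of elastic fibre assembly (8 without Hb1), 6 of 23 matricellular genes (8 without Hb1) and 4 of 11 other small leucine-rich proteoglycans (5 without Hb1), against 3.51% of all genes (4.3% without Hb1). Among the fibronectin receptors and syndecans it was called with the same sign for 1 of 12 (1 without Hb1). With the opposite sign it was called for 1 matricellular gene (2 without Hb1, 3 by DESeq2) and 1 of 12 large proteoglycans and hyaluronan genes (1 without Hb1, where 2 others had the higher value in LC boars), against 1.62% (1.31% without Hb1). Without Hb1 it was also called with that sign for 1 other small leucine-rich proteoglycan and 1 gene of propeptide processing, and by DESeq2 for 1 other small leucine-rich proteoglycan and 1 gene of elastic fibre assembly.

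Markers of the cells that make this matrix moved in the same comparisons. The 10 fibroblast markers summed to 782, 746 and 712 FPKM in Ha and 60.7, 28.9 and 22.7 in Hb. The sums were 1092, 965 and 1207 in La and 365, 354 and 314 in Lb. COL3A1 was the most abundant by its mean, and no marker of the list was at 0 in all libraries. The list includes genes of the matrix itself, among them COL1A1, COL1A2, COL3A1 and MFAP5. COL3A1 alone had a mean of 487 FPKM in Ha, 12.85 in Hb and 207 in Lb. The sum thus does not measure fibroblasts apart from matrix RNA. In Ha vs Hb 9 of 10 fell (9 without Hb1), against 23.2% of all genes. In La vs Lb 6 fell and 1 rose (MFAP5, counted also in elastic fibre assembly), against 20.1% and 27.5%. In Hb vs Lb 4 were higher (4 without Hb1), against 2.65%. The collagen COL1A1 was at 0.90, 0.52 and 0.60 FPKM in Hb and 17.8, 16.5 and 16.5 in Lb, whereas the fibroblast receptor PDGFRA was at 8.57, 8.28 and 5.34 and 9.0, 12 and 14.7. Between breeds at 120 days the log2 fold change was 4.53 ± 0.26 (SE, edgeR adjusted p = 0.000951) for COL1A1 and 0.56 ± 0.23 (SE, edgeR adjusted p = 0.179) for PDGFRA, which was not called. These genes, like the others named from the marker lists, were picked after their values were seen.

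The 8 peritubular myoid markers, with ACTA2 the most abundant by its mean, summed to 269, 294 and 281 FPKM in Ha and 78, 128 and 96.7 in Hb. They summed to 232, 216 and 231 in La and 222, 249 and 362 in Lb. In Ha vs Hb 4 of 8 fell (5 without Hb1), in La vs Lb 3 rose, against 27.5% of all genes, and in Hb vs Lb 3 were higher (3 without Hb1). ACTA2, the smooth muscle actin, fell in HZ boars at -1.14 ± 0.17 (SE, edgeR adjusted p = 0.000695) and rose in LC boars at 1.42 ± 0.18 (SE, edgeR adjusted p = 0.000144). Pericyte markers fell for 6 of 6 in HZ (6 without Hb1) and 4 of 6 in LC boars, and 2 were higher in Lb than in Hb (3 without Hb1). Their sums were 12.2, 13.4 and 9.16 FPKM in Hb and 22, 30.1 and 27.7 in Lb. PDGFRB had the highest mean over the 12 libraries, but RGS5 was the most abundant in every Hb library and in Lb1 and Lb3. Endothelial markers, led by VWF, fell for 5 of 5 (4 without Hb1) and 3 of 5, with sums of 13.9, 26.7 and 15.7 in Hb and 28.2, 45.7 and 28.6 in Lb, and 1 was higher in Lb, a call that was lost without Hb1. Macrophage markers fell for 5 of 5 (5 without Hb1) and 4 of 5, and 1 was higher in Lb (1 without Hb1). Their sums were 3.49, 4.56 and 2.24 in Hb and 5.91, 9.64 and 9.91 in Lb. CSF1R had the highest mean over the 12 libraries, but CD163 was the most abundant in Ha1, Ha2 and Hb3. The part of these cells in the changes of the 10 matrix genes was not tested.

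The Leydig marker with the highest mean over the 12 libraries was INSL3, but CYP17A1 was the most abundant in Ha2, Ha3 and every La library, and HSD17B3 in Hb3. Leydig markers fell for 4 of 7 in HZ (6 without Hb1) and 5 of 7 in LC boars. They summed to 7771, 5341 and 6281 FPKM in La and 2708, 4057 and 1712 in Lb. In Hb vs Lb 0 of 7 were called by edgeR and 0 by DESeq2, with 3 at an unadjusted edgeR p under 0.05, in the comparison in which Hb1 was far from Hb2 and Hb3. Without Hb1, 5 of 7 were called higher in Lb, against 2.85% of all genes. Sertoli markers fell for 4 of 8 (4 without Hb1) and 4 of 8. The 8 spermatocyte markers rose with age in both breeds, as did all 9 spermatid markers tested in each, and without Hb1 8 and 10 rose in Ha vs Hb. Of the spermatocyte markers PIWIL1 had the highest mean over the 12 libraries, but MEIOB was the most abundant in Ha3 and every La library. Of 11 spermatogonial markers, led by DDX4, 3 rose and 6 fell in Ha vs Hb (3 and 4 without Hb1), and 4 rose and 5 fell in La vs Lb. Erythroid markers, led by HBB, fell for 5 of 5 in Ha vs Hb (5 without Hb1), and 4 of 5 were lower in La than in Ha. The spermatid sum was 5280.0, 5793 and 7667 FPKM in Hb and 3909, 3342 and 3575 in Lb, and 1 of 10 markers was called lower in Lb (2 without Hb1). Its part in the difference of the matrix genes between Hb and Lb was not tested.

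At 30 days markers of several cells differed between the breeds as well. Of 8 Sertoli markers, 3 were called higher in La, with sums of 782, 751 and 973 FPKM in Ha and 1508, 1770.5 and 1632 in La, against 3.6% of all genes. Of 8 spermatocyte markers, 4 were called lower in La, with sums of 10.5, 11 and 6.5 FPKM in Ha and 5.4, 4.76 and 4.41 in La, against 4.01%. The Leydig list had 1 marker called higher. The fibroblast list (MFAP5, counted also in elastic fibre assembly) and the spermatogonial list had 1 each called lower. DESeq2 called the same numbers in these lists, except for 0 of 10 fibroblast markers, of which 6 had an unadjusted edgeR p under 0.05, against 36.4% of all genes. Neither edgeR nor DESeq2 called a peritubular myoid, pericyte, endothelial, macrophage or spermatid marker there, where 3 of 8, 2 of 6, 2 of 5, 1 of 5 and 0 of 5 had an unadjusted edgeR p under 0.05, against 36.4% of all genes. The part of these cells in the 30-day values of the matrix genes was not tested.

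The interaction of breed and age was called for markers of interstitial cells too, where the fibroblast list includes collagen genes. With the higher value in LC boars it was called for 5 of 10 fibroblast markers (6 without Hb1), 3 of 8 peritubular myoid markers (4 without Hb1) and 2 of 6 pericyte markers (3 without Hb1), against 3.51% of all genes (4.3% without Hb1). It was called for 1 of 5 endothelial, 1 of 5 macrophage, 1 of 5 erythroid and 2 of 11 spermatogonial markers (1 without Hb1), and with the opposite sign for 2 of 10 spermatid markers (1 without Hb1), against 1.62%. Of 8 Sertoli markers edgeR called 0, with 5 at an unadjusted p under 0.05, and DESeq2 called 1 with each sign. Without Hb1 edgeR called 1 with the opposite sign. Of 8 spermatocyte markers edgeR called 0, with 4 at an unadjusted p under 0.05, and DESeq2 called 1. For Leydig markers neither edgeR nor DESeq2 called it, with 3 of 7 at an unadjusted edgeR p under 0.05, while without Hb1 it was called for 5 of 7. The part of these cells in the interaction of the matrix genes was not tested.

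Without Hb2, the number of genes called in Ha vs Hb moved by more than 1.5 times for no list, and 24.8% of all genes were called lower and 28.5% higher. Between Hb and Lb, 3.91% were then higher and 2.33% lower in Lb. The genes of elastic fibre assembly called higher in Lb numbered 11 without Hb2, fibroblast markers 4 and peritubular myoid markers 4. Of the fibronectin receptors and syndecans 1 was called, of the glycosaminoglycan enzymes 1, of Sertoli markers 2 and of spermatogonial markers 1, while 3 spermatid and 1 spermatocyte markers were lower, and the calls of HSPG2 and of the macrophage marker were lost. The interaction was called for 5 fibroblast, 3 peritubular myoid and 2 pericyte markers without Hb2, for 2 macrophage markers, 1 Sertoli marker and 1 glycosaminoglycan enzyme, against 4.47% of all genes, and the call of a fibronectin receptor or syndecan was lost. With the opposite sign it was then called for 1 glycosaminoglycan enzyme and 1 gene of propeptide processing, against 2.59%.

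Across the 12 libraries the gene nearest to each member was found by the root mean square difference of log2 CPM, each gene centred on its own mean, among 16632 genes. ARHGEF3 was nearest to DCN (0.16 log2 units), TMEM44 to FMOD (0.23), SAT1 to FN1 (0.23) and B3GNT9 to LUM (0.36). LOC100623720 was nearest to both BGN (0.16) and FBN1 (0.21), and these were also each other's nearest member (0.27). LOC100522887 was nearest to OGN (0.22), MZB1 to SPARC (0.43), IGFBP6 to ELN (0.44) and ZP2 to POSTN (0.44). The member nearest to ELN was BGN (0.80), and the one nearest to POSTN was FN1 (1.83). The libraries form 4 groups, whose means weigh in this measure. ZP2 had at most 3 estimated counts in any 30-day library, and MZB1 at most 3 in any Hb library, levels at which log2 CPM is set largely by the prior count of 2, so no likeness of pattern can be read from these matches.

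Positions are those of RefSeq genes on Sscrofa11.1. DCN (chromosome 5, 91678601 to 91713925) and LUM (chromosome 5, 91748871 to 91756381) lie 34946 bases apart, followed by KERA and EPYC, 2 more genes of the family. KERA had a mean of at most 0.0967 FPKM and EPYC of at most 0.367 in a group. OGN (chromosome 3, 42116521 to 42135940) is followed by OMD, ASPN and ECM2 at 6663, 29613 and 69306 bases. FMOD (chromosome 9, 64062995 to 64073853) has PRELP and OPTC within 200 kb, where OPTC rose with age while FMOD fell.

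BGN lies on chromosome X, 124282048 to 124295450, FN1 on chromosome 15, 117658158 to 117737145 and SPARC on chromosome 16, 71368164 to 71380972. FBN1 spans chromosome 1, 123102011 to 123359649, ELN chromosome 3, 11214194 to 11245891 and POSTN chromosome 11, 13225183 to 13258973. Of the lncRNA transcripts, 3 overlapped or lay within 10 kb of a member. LOC102166397 at POSTN and LOC110257252 at SPARC had at most 3.59 and 4 estimated counts in a library and were not tested. The assembled transcript MSTRG.16017.3 (chromosome 11, 12864563 to 13323417) spans POSTN. Its estimated counts were 46, 132 and 120.0 in Ha and 20.3, 81.2 and 75.4 in Hb. They were 52.1, 66.1 and 87.7 in La and 171, 178 and 165 in Lb. It was not called in any of the 4 comparisons, where 56.2%, 61.1%, 6.35% and 3.14% of the lncRNA transcripts tested were called in HZ by age, in LC by age, at 30 days and at 120 days. It had log2 fold changes of -0.90 (edgeR adjusted p = 0.256), 0.89 (adjusted p = 0.0391), -0.43 (adjusted p = 0.657) and 1.41 (adjusted p = 0.236) in that order, with unadjusted p-values under 0.05 in LC by age and at 120 days. Whether reads of POSTN and of this transcript were shared was not tested.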

How the data were processed

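The authors filtered reads with fastp 0.18.0, removed ribosomal reads with Bowtie2 2.2.8, aligned what was left against Sus scrofa 11.1 using HISAT2 2.1.0 and assembled transcripts with StringTie 1.3.4, with versions as in the submitters' processing notes. The authors deposited estimated counts, not normalized, and FPKM values, rounded to 2 decimals, for each gene and lncRNA transcript in each library. FPKM was computed with StringTie by the authors, while the tool behind the estimated counts is not given in the sources used here. Reads themselves were not analysed here.

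Estimated counts were rounded to whole numbers, filtered with filterByExpr (minimum count 10), scaled by TMM and tested with edgeR 4.0.16 in R 4.3.3 on the 6 libraries of each comparison, and on all 12 for the interaction of breed and age. Standard errors (SE) are absolute log2 fold changes over the root of the test's F value. Calls needed a Benjamini-Hochberg adjusted p under 0.05 over all genes, with a log2 fold change above 1 in size. The procedure was tested on simulated data. Alternatives were DESeq2 1.42.0, limma 3.58.1 on log2(FPKM + 1) and log2(FPKM + 0.1), library totals, upper-quartile factors, other filters, unrounded counts, all 12 libraries in one fit, a replicate block, no fold threshold, and leaving out each library (for lists other than the members Hb1 and Hb2 only, chosen after seeing the data).

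All 10 members were named. From each other matrix list up to 2 called genes of smallest adjusted p, with groups that did not overlap, could be named for each direction and comparison, and 1 nearest gene for each member. Members and lists were chosen with earlier results of these data known. Of the listed genes, HAS2, CHPF2, CHST6, MSLN, ITLN1, PAX8 and LCN8 were not analysed here. CCN genes were matched by older symbols. Positions came from RefSeq. Tables and plots used Python 3.11.15, pandas 2.3.3, numpy 2.4.6 and matplotlib 3.10.9.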

Additional observations from a re-analysis of the deposited data

Results flagged for a closer look

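The change with age differed between the breeds by the test of the interaction for 4 of the 10 genes, all with the higher value in LC boars. Of all genes, 3.51% were called with that sign and 5.14% in either direction. For ELN the log2 change in LC boars minus that in HZ boars was 4.13 (edgeR adjusted p = 0.00344), with a fall in HZ boars and values on the higher side at 120 days in LC boars. For BGN the difference was 2.01 (edgeR adjusted p = 0.00229), for FN1 1.75 (edgeR adjusted p = 0.0074) and for FBN1 1.36 (edgeR adjusted p = 0.0214), all with a larger fall in HZ boars. The interaction was also called with that sign for 3 of 8 peritubular myoid and 2 of 6 pericyte markers, against 3.51% of all genes. So it was for 5 of 10 markers of the fibroblast list, which includes collagen genes. Without Hb1 it was called for 5 of 7 Leydig markers, against 4.3%. The part of these cells in the differences was not tested.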

How the results depend on the processing

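The log2 fold change of no member changed sign under any alternative, and 1014 of 1087 values stayed on their side of the threshold or within 1.5 times the count. In Ha vs La, where 0 genes were called, 5 passed with no fold threshold. Leaving out 1 library at a time gave 9 to 10 called members in Ha vs Hb, 7 to 9 in La vs Lb, 0 to 1 in Ha vs La, 3 to 6 in Hb vs Lb and 4 to 5 for the interaction. All genes called in these fits numbered 8210 to 9015, 7843 to 8126, 831 to 1466, 97 to 1029 and 437 to 1242 in that order. With no library left out they numbered 8510, 7926, 1192, 628 and 890. The 1 member called in Ha vs La was LUM without Ha3 and SPARC without La2. The cause was not tested, apart from the fewer libraries in each such fit.

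The labels name nothing that samples of the same number share, so no pairing was assumed, and correlations of their deviations from the group means lay between -0.0222 and 0.0527. Each sample correlated best with its own number in Ha vs Hb, and in the other comparisons Lb3, with La3, was the only one that did. With the replicate number as a block, 9, 7, 1 and 4 members were called with age in HZ boars, with age in LC boars, at 30 days and at 120 days, and 4 for the interaction. All genes called with the block numbered 8430, 7770, 1030, 154 and 672 in that order. The 1 member at 30 days was SPARC, at a log2 fold change of 1.10 (edgeR adjusted p = 0.0159), and SPARC and OGN were lost at 120 days.

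Scalings moved the median of all genes. In Ha vs Hb the shift was -0.30 with library totals, -0.32 with upper-quartile factors, -0.26 with log2(FPKM + 1) and -0.45 with log2(FPKM + 0.1), and in La vs Lb -0.17, -0.26, -0.17 and -0.28. Relative to it, ELN lay at -3.40 to -3.23 in Ha vs Hb and 0.69 to 0.94 in La vs Lb. For Hb vs Lb the shift was 0.11 with log2(FPKM + 0.1), and for the interaction 0.15 with library totals and 0.16 with log2(FPKM + 0.1). All genes called in Hb vs Lb numbered 628, against 1153 by DESeq2, 1258 with all 12 libraries in one fit and 154 with the block. For the interaction they numbered 890, against 1364 by DESeq2 and 1365 with log2(FPKM + 0.1) and between 437 (without Ha1) and 1242 (without Hb2) with 1 library left out, and in Ha vs La 1192, against 507 with log2(FPKM + 1) and 3333 with no fold threshold. FN1 was also called in Hb vs Lb with library totals, at 1.04 where the median of all genes moved by 0.07. With log2(FPKM + 0.1) DCN was called there, at 0.90 relative to the shift and so under the threshold, and OGN for the interaction, at 1.22 relative to it. DESeq2 called 6 matricellular genes in Hb vs Lb where edgeR called 3. Groups of 3 boars limit the precision, as do low counts, of which the lowest for a member was 59 (OGN in Hb3).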
